A study of Paramacrobiotus metropolitanus with 7 samples.

Results

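Of 26306 transcripts in the deposited matrix of *P. metropolitanus*, 50 were at least 10 TPM in every male library, had a lowest female value of at least 4 times the highest male value, and varied less than 3-fold among the female libraries. These female-enriched transcripts were therefore present in both sexes, in contrast to transcripts limited to females. They were chosen by these TPM values of all 7 libraries, so the higher level in females is a description of the 50 transcripts and not a finding. TPM is the abundance of a transcript corrected for its length and for library size, here additionally rescaled between libraries by TMM, a normalization that trims extreme ratios.

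RNA was taken from whole bodies of the laboratory TYO strain, in tubes of many pooled specimens of one sex, with 3 female and 4 male libraries. The animals were reared singly from the egg and sexed once their sexual organs had formed, and no treatment is named for either sex. Each library is therefore an average over many individuals and all tissues, and a higher number of expressing cells cannot be told apart from more RNA per cell. The study asked which genes differ between the sexes.

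In eutardigrades the gonad is an unpaired sac, in which females form yolk-rich oocytes supported by nurse cells and males form sperm. Oocytes store RNA for the embryo, so that transcripts of general cell functions can be abundant in the ovary and still be present in other tissues of both sexes. The files pair no gene name with an identifier. No entry of the RefSeq gene table matched any of the 24899 gene identifiers (0 matches), so no function, coordinate or sequence is given for the transcripts described here. Of the 69 transcripts of the study's DMRT, sxl, tra2, CAHS, SAHS, AMNP and Dsup lists, 0 were chosen, and of the 67 tested 5 had a higher level in females and 15 in males by the comparison given below, against 23.9% and 25.3% of all tested transcripts. Of these 5, closest to the required ratio of 4 were both transcripts of the sxl candidate PARRI_0007430, at 3.09 and 2.54 but with under 3 TPM in every male library, followed by the Dsup candidate PARRI_0005796.t1 at 2.18.

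The matrix keeps no read depth. The libraries summed to between 891117 and 1127677 TPM. The precision of a value is given by the spread between libraries. A mean normalized count, deposited as a pooled value per sex, gives the read support of the 50 transcripts. It ranged from 193 to 34133 in females (median 2596) and from 16.3 to 1022 in males (median 208). It was below 50 in males for 4 transcripts, PARRI_0001880.t1 (16.3), PARRI_0003800.t1 (23.8), PARRI_0002510.t1 (28.9) and PARRI_0010910.t1 (49.6), whose male values rest on the fewest reads. In females, the 50 transcripts had a median of 10.5 counts per TPM, a quantity that grows with the length of the coding sequence, against 10.4 over all tested transcripts. They were thus neither long nor short as a group, with 25 of 50 above that median, although single transcripts ranged from 0.296 to 33.1 counts per TPM.

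The 50 transcripts came from 50 different loci. Their female means ranged from 67.7 to 6843 TPM with a median of 288 TPM, and their male means from 11.4 to 213 TPM with a median of 24.3 TPM. The ratio of the means (females over males) was between 5.94 and 67.4, with a median of 10.6. Above 1000 TPM in the female mean were 13 transcripts, and 33 were below 500 TPM. In males, 40 of the 50 had a mean below 50 TPM and 4 had a mean above 100 TPM.

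Together the 50 transcripts held 2.67%, 3.72% and 5.08% of all TPM in female libraries 1 to 3. In male libraries 1 to 4 they held 0.155%, 0.219%, 0.219% and 0.224%. Their summed level averaged 39215 ± 15379 TPM (SD, n = 3) over the female libraries, against 2023 ± 260 TPM (SD, n = 4) over the male libraries. In TPM the spread was thus much wider among the female libraries, but their mean was also 19.4 times the male mean. The sums ran from 24386 to 55091 TPM in females and from 1746 to 2371 TPM in males.

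**Figure D1:**
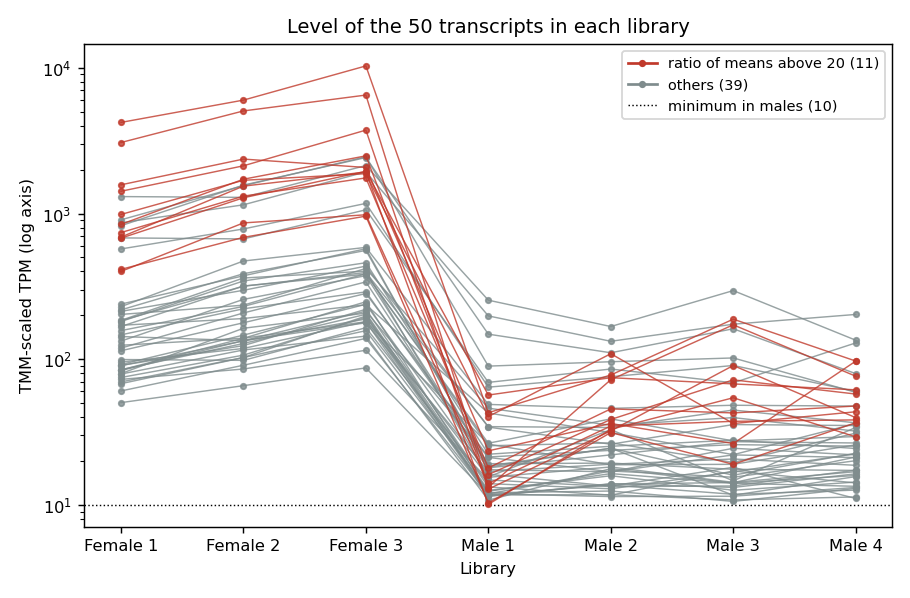
TMM-scaled TPM (log axis) of the 50 female-enriched transcripts in each of the 7 libraries, with 1 line per transcript. The 11 transcripts with a ratio of means above 20 are red, and most of them dip in male library 1, while the 39 others lie flatter across the male libraries.

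Sex was compared over 18420 transcripts (at least 1 TPM in at least 3 of the 7 libraries) with limma on log2(TPM + 0.1) and Benjamini-Hochberg adjustment, calls being made at an adjusted p of 0.05. On this scale, differences of weakly expressed transcripts are understated. Over all tested transcripts, 4410 (23.9%) passed with a higher level in females, while 4662 (25.3%) passed with a higher level in males. Which sex had more calls depended on the setting, since 4155 were higher in females and 3005 in males when a mean of at least 5 TPM was required, and 3556 and 3065 without male library 1. The median log2 difference (females minus males) was -0.50, and -0.09 after quantile normalization. The choice itself places the differences of the 50 transcripts above either median. All 50 female-enriched transcripts were among the calls, as their choice requires, and their log2 differences lay between 2.53 and 6.29 with a median of 3.30.

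The most abundant of the 50 was PARRI_0005763.t1, with 4220, 6003 and 10305 TPM in female libraries 1 to 3. It had 42.9, 77.9, 188 and 97.1 TPM in male libraries 1 to 4. It was also the most separated, its lowest female value being 22.4 times its highest male value. PARRI_0016206.t1 followed with 3071, 5059 and 6502 TPM in females, and with 13.2, 72.3, 172 and 76.4 TPM in males. Its male values ranged 13-fold, the widest male range of the 50. In both transcripts male library 1 was lowest and male library 3 highest.

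PARRI_0009773.t1 had 1422, 2125 and 3736 TPM in females and 12.8, 32.2, 90.5 and 39.7 TPM in males. Male library 3 was again the highest and male library 1 the lowest, with a 7.06-fold range. PARRI_0007571.t1 showed the same order of extremes, with 842, 1719 and 2488 TPM in females and 16.1, 38.6, 72.1 and 57.6 TPM in males. PARRI_0020693.t1 did too, with 689, 1541 and 1927 TPM in females and 10.1, 33.0, 54.3 and 29.3 TPM in males. These 5 transcripts had the widest male ranges of the 50, from 4.39-fold to 13-fold.

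Not every abundant transcript had this order. PARRI_0003800.t1 had 1574, 2364 and 2070 TPM in females and 23.5, 36.2, 26.4 and 96.9 TPM in males, where male library 4 was the highest. It was the only one of the 50 whose highest female library was not library 3. PARRI_0000733.t1 had 740, 1316 and 1755 TPM in females and 17.9, 45.6, 42.8 and 47.7 TPM in males. Here male libraries 2 to 4 lay close together and male library 1 stood below them.

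The 5 transcripts with the highest male mean differed widely in their ratio of means (females over males). They included PARRI_0005763.t1, with the highest ratio of the 50 (67.4), and PARRI_0009338.t1, with a ratio of 12.8. PARRI_0009337.t1 had 254, 168, 296 and 135 TPM in males and 1307, 1290 and 2135 TPM in females. PARRI_0001280.t1 had 198, 133, 174 and 203 TPM in males and 863, 1147 and 1931 TPM in females. The ratios of PARRI_0009337.t1 and PARRI_0001280.t1 were 7.40 and 7.43, below the median of 10.6. For PARRI_0001280.t1 the male values ranged only 1.53-fold. PARRI_0006804.t2 had 69.3, 85.6, 68.8 and 129 TPM in males and 680, 669 and 1060 TPM in females, so that male library 4 was its highest male library.

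At the other end, some transcripts were almost constant among the male libraries. PARRI_0011658.t1 had 48.9, 46.0, 48.3 and 47.7 TPM in males, a range of 1.06-fold, while its female values were 229, 472 and 585 TPM. PARRI_0007498.t1, which had the lowest female mean of the 50, had 11.7, 11.7, 10.8 and 11.3 TPM in males and 50.3, 65.8 and 87.1 TPM in females. PARRI_0007939.t1 had 19.2, 19.3, 17.5 and 17.2 TPM in males and 147, 222 and 290 TPM in females. In each of these the male libraries differed less from each other than the female libraries did. The male range was below 1.5-fold in 23 of the 50 and below 2-fold in 36. The median male range was 1.52-fold, against 1.64-fold over the 7963 tested transcripts with at least 10 TPM in every male library. The share with a range above 3-fold was 8 of 50 among the female-enriched transcripts and 10.6% in that larger set. The choice limits the highest male value of the 50, which was not limited in the larger set. Both comparisons of male range are therefore shaped by the choice and are given as a description.

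The wide male ranges were found among the transcripts with the largest sex ratios. This link is partly built in and is given as a description. The choice ties the highest male value to the lowest female value, so a wide male range tends to raise the lowest ratio of means that can pass. In 11 of the 50 the ratio of means was above 20, a bound set after the values were seen. In these 11 the male range had a median of 4.13-fold and lay between 1.32-fold and 13-fold. In the 39 others it had a median of 1.45-fold and did not exceed 2.32-fold. The male means of the 11 were not low, lying between 24.3 and 102 TPM, against a median of 24.3 TPM over the 50. Their female means lay between 686 and 6843 TPM, against a median of 288 TPM over the 50. Male library 1 was the lowest male library in 10 of the 11, the exception being PARRI_0001880.t1, and in 12 of the 39. Over all transcripts with at least 10 TPM in every male library it was the lowest in 20.4%, and over all transcripts called higher in females in 39.8%. The highest male library was library 3 in 5 of the 11, library 4 in 4 and library 2 in 2. The same 10 of 11 had male library 1 lowest after each library was rescaled to a common sum and after quantile normalization.

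**Figure D2:**
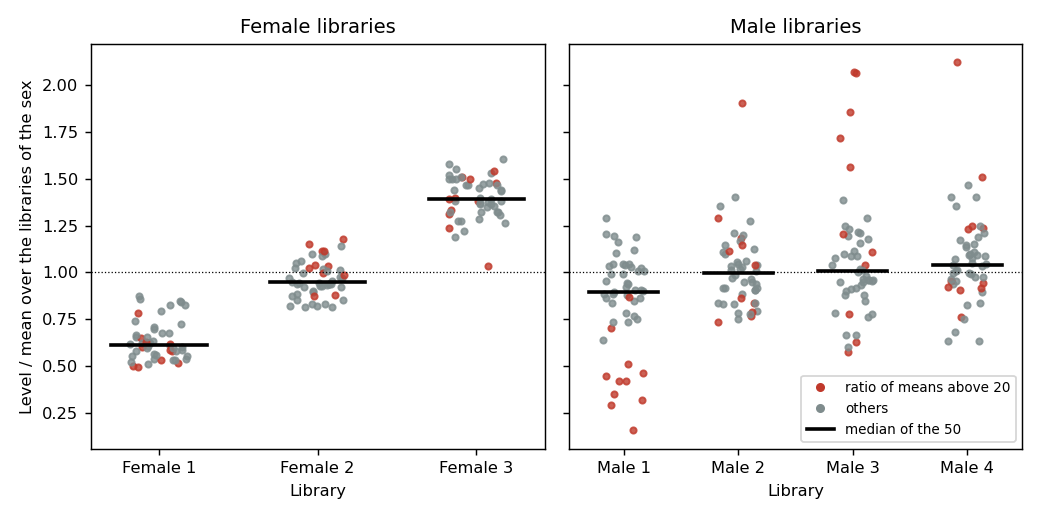
Level of each of the 50 transcripts divided by its own mean over the libraries of the sex, by library, with the median of the 50 as a black bar. Medians rise from 0.614 in female library 1 to 1.39 in female library 3, and in males the red points, with a ratio of means above 20, fall lowest in library 1.

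The female libraries differed in a shared manner. Female library 3 was the highest in 49 of the 50 transcripts and female library 1 the lowest in 46. In the other 4, PARRI_0001209.t1, PARRI_0006804.t2, PARRI_0008426.t1 and PARRI_0009337.t1, female library 2 was the lowest, although libraries 1 and 2 were close to each other there. For PARRI_0008426.t1 the female values were 99.4, 98.1 and 164 TPM. The ratio of female library 3 to female library 1 had a median of 2.32 and ran from 1.32 to 2.95, its upper end being set by the choice of transcripts. With each library rescaled to a common sum, female library 3 was the highest in 49 of the 50 and the median ratio was 1.95, and with quantile normalization these values were 49 and 2.00.

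This order was not particular to the 50 transcripts. Of 1935 other transcripts that were called higher in females and had at least 10 TPM in every male library, female library 3 was the highest in 93.9% and female library 1 the lowest in 95%. Over all 18420 tested transcripts these shares were 37.9% and 55.2%. The order was thus common among transcripts higher in females and less common over all transcripts.

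The choice of transcripts leaned on female library 1. When the same criteria were applied without a given library, 225 transcripts were chosen without female library 1, 50 without female library 2 and 62 without female library 3. The value in the left-out library, which then had no part in the choice, passed in 62 of the 225 transcripts (27.6%) for female library 1. It passed in 50 of 50 for female library 2 and in 61 of 62 for female library 3. With female library 1 left out as well, the share for female library 2 fell from 100% to 39.3%, and with female library 2 left out as well, that for female library 1 fell to 10.8%. Over the 7963 tested transcripts with at least 10 TPM in every male library, the same criterion (at least 4 times the highest male library) was passed by 0.791%, 2.88% and 7.20% in female libraries 1 to 3. Female library 1 was thus the library in which most transcripts fell short, although it was above the highest male library in 224 of the 225, at a median of 3.16 times that library.

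For the male libraries, a left-out value had to be at least 10 TPM and the lowest female value had to be at least 4 times it. It passed in 50 of 76 transcripts for male library 1, in 50 of 60 for male library 2, in 50 of 68 for male library 3 and in 50 of 64 for male library 4. The backgrounds, over tested transcripts with at least 10 TPM in the other male libraries, were 1.62%, 1.74%, 1.53% and 1.56%. Male library 1 thus had the lowest share passing, and the lowest ratio of the lowest female value to the left-out male library 1 was 2.67 among the 76. The transcripts passing for a male library are the 50 by definition, so only the number chosen varied. The backgrounds of both sexes were not chosen for a higher level in females, so the shares are no independent check of the choice. These shares are descriptions over transcripts that share the same libraries.

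The limits of the choice cut through a continuous range. Just inside the required ratio of 4 lay PARRI_0007617.t1 (4.00), PARRI_0002064.t1 (4.05) and PARRI_0001117.t1 (4.11). Just outside lay PARRI_0005409.t1 (3.997), PARRI_0006765.t1 (3.94) and PARRI_0011005.t1 (3.92). The lowest male values inside were those of PARRI_0020693.t1, at 10.1 TPM, and PARRI_0003810.t1, at 10.3 TPM. PARRI_0006829.t1 and PARRI_0005494.t1, at 9.98 and 9.80 TPM, were the nearest outside. The range within females was 2.95-fold for PARRI_0007571.t1 and 3.08-fold for PARRI_0007423.t1, the nearest transcript outside.

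The male levels were next set beside those of transcripts limited to females. Both sets are defined by their male values, so that a higher male level of the female-enriched transcripts is fixed by the choice and is given as a description. There were 18 transcripts with at least 10 TPM in every female library and below 1 TPM in every male library. Their summed level was 591 ± 216 TPM (SD, n = 3) in females, and 4.12, 4.76, 3.94 and 8.52 TPM in male libraries 1 to 4, or 0.697%, 0.806%, 0.667% and 1.44% of the female mean. The 50 female-enriched transcripts summed to 4.45%, 4.97%, 6.05% and 5.16% of their female mean in the same libraries. Their median level per transcript was 8.71%, 9.85%, 10.4% and 9.84% of the female mean, against 0.591%, 0.694%, 0.0401% and 2.13% for the female-limited transcripts. In summed TPM, male library 4 was thus the highest for the female-limited transcripts, and male library 3 for the female-enriched ones. As a share of all TPM in a library, male library 4 was the highest for both sets. That share was 0.224% for the female-enriched transcripts, against 0.219% in male library 3. Of the 18 female-limited transcripts, 6, 5, 9 and 4 were listed at 0 in male libraries 1 to 4. Their medians and their order of male libraries thus rest on values near the floor.

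For the 3 transcripts with the largest ratio of means these percentages were low, as that ratio implies. PARRI_0016206.t1 stood at 0.271%, 1.48%, 3.53% and 1.57% of its female mean in male libraries 1 to 4. PARRI_0009773.t1 stood at 0.528%, 1.33%, 3.73% and 1.64%, and PARRI_0005763.t1 at 0.627%, 1.14%, 2.75% and 1.42%. Single female-limited transcripts reached between 3.501% (male library 3) and 4.76% (male library 4) in these libraries, so that the levels of both groups overlapped there. These 3 female-enriched transcripts had their highest male value in male library 3.

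**Figure D3:**
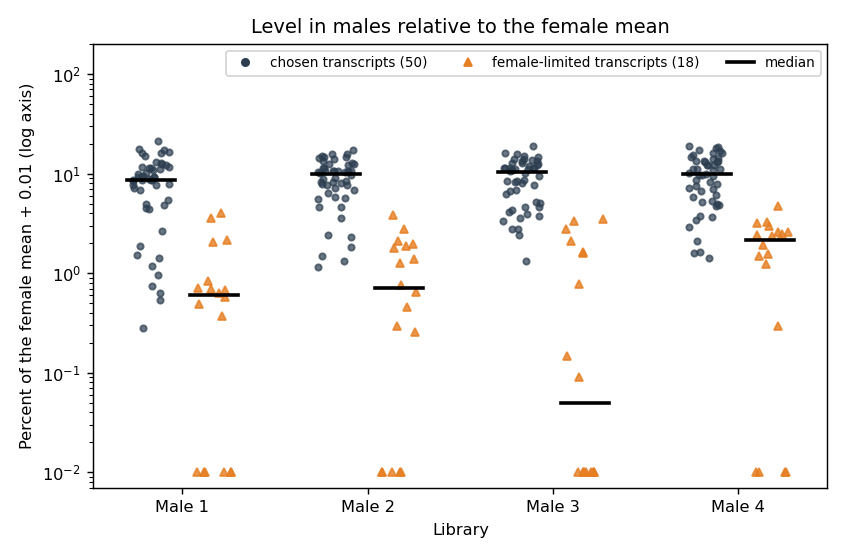
Level in each male library as a percentage of the transcript's female mean (plus 0.01, log axis) for the 50 female-enriched and the 18 female-limited transcripts, with medians as black bars. Medians of the female-enriched transcripts lie between 8.71% and 10.4%, and above those of the female-limited transcripts in every male library, as the definition of both sets by their male values favours.

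Values that the choice did not use come from other transcripts of the same loci and from neighbouring loci. At 5 of the 50 loci the matrix holds a second transcript. Reads shared by transcripts of a locus are divided by RSEM, so that the values of such a pair are not independent. Among these 5 second transcripts, females had the higher level in 4 calls and males in 1 call, against 23.9% and 25.3% of all tested transcripts.

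The second transcript of PARRI_0020693 followed the chosen one closely. PARRI_0020693.t2 had 208, 482 and 612 TPM in females and 3.55, 10.3, 27.5 and 9.35 TPM in males, with male library 1 lowest and male library 3 highest as in PARRI_0020693.t1. On the log2 scale females were higher by 5.31 (standard error 0.66). PARRI_0003550.t1 had 67.8, 116 and 170 TPM in females and 8.32, 9.76, 12.1 and 13.9 TPM in males, females being higher by 3.34 on the log2 scale (standard error 0.36). PARRI_0010285.t1 had 76.3, 183 and 274 TPM in females and 7.68, 11.6, 14.2 and 6.18 TPM in males, females being higher by 4.04 on that scale (standard error 0.48). In the second transcripts of these 3 loci every female library was above every male library, as in 25.9% of all tested transcripts. For the chosen transcripts the choice requires this.

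At PARRI_0006804 both transcripts were higher in females. PARRI_0006804.t1 had 264, 318 and 489 TPM in females and 101, 72.3, 63.1 and 105 TPM in males. Females were higher by 2.04 on the log2 scale (standard error 0.31), against 3.20 (standard error 0.31) for the chosen PARRI_0006804.t2, and the difference between these values was not tested. PARRI_0006804.t2 made up 72.1%, 67.8% and 68.5% of the locus in females and 40.7%, 54.2%, 52.2% and 55.1% in males. These shares did not overlap between the sexes, but PARRI_0006804.t2 was chosen for its higher level in females, which favours a higher share there.

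PARRI_0007993 was the only one of the 5 loci at which the transcripts differed between the sexes in opposite directions. PARRI_0007993.t1 had 69.8, 103 and 198 TPM in females and 11.5, 14.0, 13.2 and 16.3 TPM in males. PARRI_0007993.t2 had 3.77 and 4.36 TPM in female libraries 1 and 2, was listed at 0 in female library 3, and had 31.6, 23.4, 16.8 and 5.74 TPM in males. PARRI_0007993.t2 was thus higher in males. In TPM, the chosen transcript made up 94.9% to 100% of the locus in females and 26.6% to 74.0% in males. PARRI_0007993.t1 was chosen for its higher level in females, which favours a higher share there. The limma adjusted p of PARRI_0007993.t2 was 0.041, and the call was lost in 8 of the 16 alternative fits, among them those without female library 3 or without male library 1, 2 or 3. The deposited mean normalized counts of PARRI_0007993.t2 were 2.99 in females and 21.9 in males, so its values rest on few reads. Those of PARRI_0007993.t1 were 632 in females and 62.5 in males. By counts, the chosen transcript was thus the higher of the pair in males too.

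**Figure D4:**
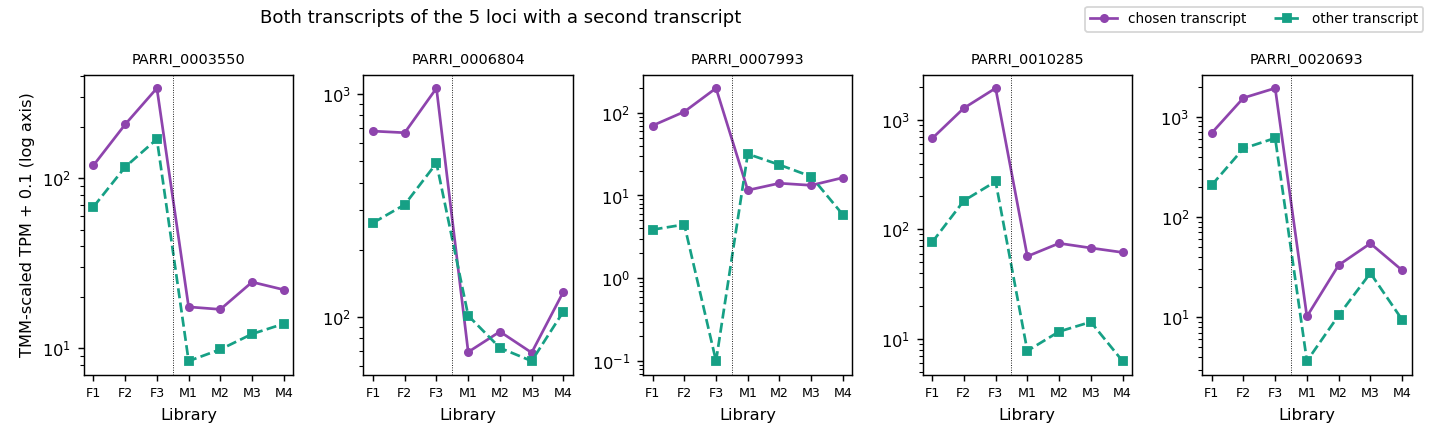
TMM-scaled TPM plus 0.1 (log axis) of both transcripts at the 5 loci that have a second transcript, in female libraries 1 to 3 (F1 to F3) and male libraries 1 to 4 (M1 to M4). The lines of both transcripts run in parallel at PARRI_0003550, PARRI_0010285 and PARRI_0020693, come together in males at PARRI_0006804 and change places at PARRI_0007993, where the second transcript is the higher in M1 to M3.

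Locus numbers were used as an approximation of the order of loci, and breaks between scaffolds were not taken into account. Excluding the 50 loci themselves, 95 transcripts of loci numbered 1 below or 1 above them were tested. Of these, 46 (48.4%) were called higher in females, against 23.9% of all tested transcripts, and 12 (12.6%) were called higher in males, against 25.3%. Their median log2 difference (females minus males) was 0.90, against -0.50 over all tested transcripts, and 0.61 against -0.09 after quantile normalization. In the 16 alternative fits between 33 and 48 of these neighbours were called higher in females, with 33 without female library 2 and without female library 3.

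A neighbour higher in females was common for other loci higher in females too. Of the 50 loci, 42 (84.0%) lay next to a locus with a transcript called higher in females. For 1928 other loci with a transcript called higher in females and with at least 10 TPM in every male library the share was 70.0%, and over all 17637 tested loci it was 36.9%. The difference between 84.0% and 70.0% was not tested.

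Among the 50 loci, 6 (12%) lay next to another of the 50, in 3 pairs. Of the 4325 loci with a transcript called higher in females, 67.2% lay next to another such locus. That set is far larger, so neighbours within it are more frequent. PARRI_0009337 and PARRI_0009338 belonged to a run of similar loci. PARRI_0009338.t1 had 825, 1566 and 2421 TPM in females and 148, 111, 162 and 79.6 TPM in males. On either side, PARRI_0009336.t1 had 685, 1594 and 2518 TPM in females and 188, 86.3, 173 and 48.1 TPM in males, and PARRI_0009339.t1 had 490, 1097 and 1415 TPM in females and 168, 136, 181 and 63.7 TPM in males. These neighbours fell short of the criteria, PARRI_0009336.t1 by its range among females (3.67-fold) and its ratio of lowest female to highest male (3.64), and PARRI_0009339.t1 by that ratio (2.70). In all 4 transcripts male library 4 was the lowest male library. Over the 7963 tested transcripts with at least 10 TPM in every male library it was the lowest in 33.2%. Male library 1 was the lowest in most of the transcripts with the largest sex ratios. It is not known whether the 4 loci of the run are copies of one another, between which reads could have been divided.

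The run had a sharp edge on one side. PARRI_0009335.t1, one of the AMNP transcripts (a manganese-dependent peroxidase family of tardigrades), had 455, 501 and 400 TPM in females and 1386, 686, 1100 and 657 TPM in males. Male library 4 was its lowest male library too. The log2 difference was -1.02 (females minus males, standard error 0.34) with a limma adjusted p of 0.037. That of the adjacent PARRI_0009336.t1 was 3.70 (standard error 0.59) with a limma adjusted p of 0.0019. On the other side PARRI_0009340.t1 was weakly higher in females, with a log2 difference of 1.15 (standard error 0.33), a call that was lost after quantile normalization (limma adjusted p 0.079).

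PARRI_0003359 and PARRI_0003360 formed an isolated pair. PARRI_0003359.t1 had 95.5, 118 and 181 TPM in females and 11.4, 13.9, 14.2 and 21.3 TPM in males, and PARRI_0003360.t1 had 905, 1553 and 2450 TPM in females and 89.6, 96.0, 102 and 59.2 TPM in males. PARRI_0003360.t1 was the higher in every library. PARRI_0003358.t1, next to PARRI_0003359.t1, was higher in males. It had 21.6, 29.5 and 22.2 TPM in females and 72.8, 43.1, 109 and 39.2 TPM in males (log2 difference, females minus males, -1.32, standard error 0.38, limma adjusted p 0.023). PARRI_0003361.t1, on the other side, had 23.6, 36.2 and 43.6 TPM in females and between 33.0 and 40.9 TPM in males. These values overlapped (limma adjusted p 0.76), although after quantile normalization it was called higher in males (limma adjusted p 0.049).

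PARRI_0005505 and PARRI_0005506 lay within a longer stretch higher in females. PARRI_0005505.t1 had 91.9, 146 and 238 TPM in females and 16.2, 13.5, 18.1 and 11.1 TPM in males. PARRI_0005506.t1 had 84.3, 139 and 248 TPM in females and 12.1, 12.4, 10.6 and 12.97 TPM in males. The pair was alike in level and in log2 difference (females minus males), at 3.34 (standard error 0.36) and 3.56 (standard error 0.36). The flanking PARRI_0005503.t1, PARRI_0005504.t1, PARRI_0005507.t1 and PARRI_0005508.t1 were all called higher in females, with log2 differences of 1.58, 1.47, 2.28 and 1.04. The call of PARRI_0005508.t1 was lost when libraries were rescaled to a common sum (limma adjusted p 0.074). PARRI_0005507.t1, with 22.3, 39.0 and 55.7 TPM in females and 7.24, 8.92, 6.61 and 7.19 TPM in males, was the closest to the pair in log2 difference, though not in level.

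**Figure D5:**
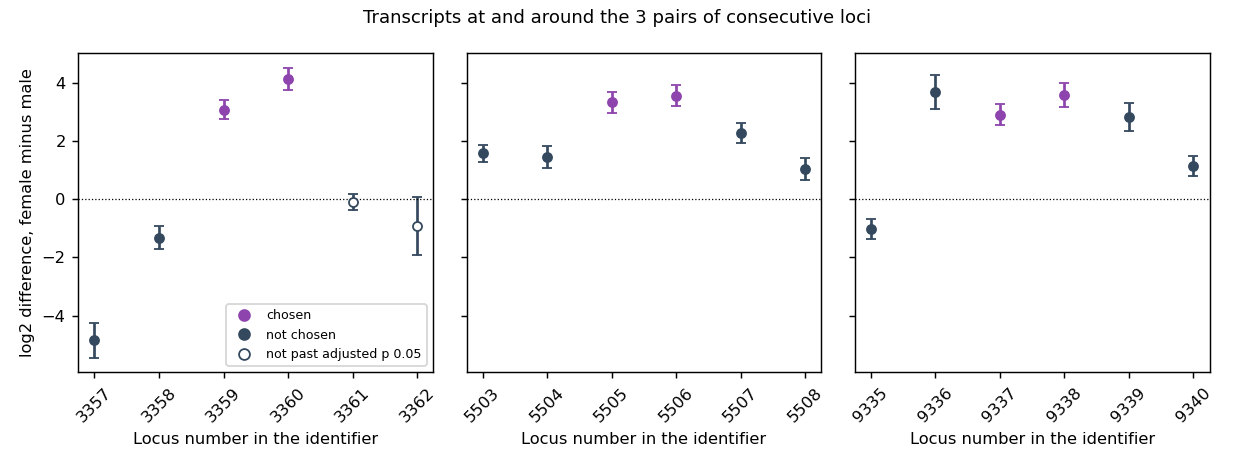
Log2 difference (females minus males, limma on log2(TPM + 0.1), bars are standard errors) of transcripts at and around the 3 pairs of consecutive loci, by locus number. The pair at 3359 and 3360 stands alone, while transcripts on both sides of the pairs at 5505 and 9337 are also higher in females, except at PARRI_0009335.t1.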

How the data were processed

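Reads were assigned to coding sequences by the authors with RSEM 1.3.3. The authors deposited TMM-rescaled TPM, a signal for each transcript in each library that keeps no counts. The authors' DESeq2 1.38.0 comparison of the sexes on RSEM counts was deposited too. Of that table only the mean normalized count per sex (a signal pooled by the authors) was used, and its fold changes, standard errors, scores and p-values were not. The genome build is not given in the sources used here.

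Sexes were compared with limma 3.58.1 (R 4.3.3) on log2(TPM + 0.1), since the matrix holds no counts. The model held sex alone, its prior variance followed the mean level, and tests were two-sided. The function was tested on simulated data. Other values were computed with Python 3.11.15, pandas 2.3.3, SciPy 1.17.1 and NumPy 2.4.6, and plotted with matplotlib 3.10.9. The libraries are separate tubes of pooled specimens, and p-values measure the spread between tubes.

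The transcripts and lists were chosen with earlier results of these data known. Transcripts named are the 8 with the highest female and the 5 with the highest male mean, and the 5 with the largest ratio of lowest female to highest male. To these come the 5 with the widest and the 3 with the narrowest male range, those nearest the limits of the choice, and pairs of neighbouring loci. Others were named after their values were seen. Alternatives were other pseudocounts, filters, scalings, priors and limits of the choice, a block for replicate number, and each library left out.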

Additional observations from a re-analysis of the deposited data

Results flagged for a closer look

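The male values of the 50 transcripts and of the 5 second transcripts of their loci were searched for 1 library standing apart. In 4 of these 55 groups the gap to the nearest library, as a share of the whole range, exceeded Dixon's 95% critical value for 4 samples, and chance alone picks out about 5% of groups. Male library 1 was far below the others for PARRI_0000733.t1 (17.9 TPM, gap 0.834 of the range) and PARRI_0008745.t1 (14.0 TPM, gap 0.854). Male library 2 was far above the others for PARRI_0001880.t1 (109 TPM, gap 0.899), which has 16.3 mean normalized counts in males. Male library 2 was far below the others for PARRI_0003703.t1 (26.1 TPM, gap 0.853).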

How the results depend on the processing

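The number of chosen transcripts was 146 and 18 with a male minimum of 5 and 20 TPM, 126 and 29 with a ratio of 3 and 5, and 13 with a female range below 2. It ranged from 50 to 225 with each library left out (225 without female library 1, 76 without male library 1). Loci next to another chosen locus numbered 12 and 2, 12 and 2, and 0 under these limits in the same order, and from 6 to 28 with each library left out. Rescaling each library to a common sum gave 62 transcripts, 44 of them shared with the 50, and quantile normalization gave 55, 46 of them shared.

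Calls higher in males fell to 3005 when a mean of at least 5 TPM was required and ranged from 3065 to 5552 with each library left out. Calls higher in females ranged from 3135 to 4938. All 50 transcripts stayed called in all 16 alternative fits. The deviations of same-numbered libraries from the means of their sexes had correlations of -0.013, 0.028 and 0.25. Differently numbered libraries reached 0.26 (female library 1 with male library 4). The labels name no pairing, and correlations over so few libraries cannot decide whether there was one. With replicate number as a block, 3874 transcripts were called higher in females and 3711 in males.

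The median level relative to the male mean was 0.825 in male library 1 after rescaling to a common sum. It was 0.970 in male library 4 with a minimum of 20 TPM and 1.09 in male library 3 with a ratio of 5. With a female range below 2 it was 1.01, 0.914 and 0.935 in male libraries 1 to 3. With each library left out it was 0.896 to 0.963 in male library 1.

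The share passing in the left-out library was 78.9% (male library 1) with a minimum of 5 TPM. With a minimum of 20 TPM it was 39.1% (female library 1) and 94.7% (male library 2), and with a ratio of 5 it was 100% (female library 3). After rescaling to a common sum it was 35.5% (female library 1) and 86.1% (male library 3), and after quantile normalization 48.1% (female library 1). With a further library left out it ranged from 10.8% to 32.5% for female library 1, from 39.3% to 100% for female library 2 and from 60.4% to 81.2% for male library 1. The cause of these changes was not tested.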
